A study of Homo sapiens with 32 samples.

Results

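Cytosolic ribosomal protein genes encode the protein components of the ribosome. They were taken as the protein-coding rows of both count tables whose symbol is RPL or RPS followed by a number, an A, X or L form, RPLP0 to RPLP2, or RPSA, which gave 85 genes of 57773 annotated genes, 20327 of them protein coding. Of the 85 genes, 52 belong to the large subunit (RPL, RPLP) and 33 to the small subunit (RPS, RPSA), and 7 of them (RPL3L, RPL7L1, RPL10L, RPL22L1, RPL26L1, RPL39L and RPS27L) are paralogues of another gene of the set. FAU and GNB2L1 also encode proteins of the cytosolic ribosome but carry other symbols, so they were counted beside the set and not in it.

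The libraries were made from HEK293 cells, a human embryonic kidney cell line, that had been transiently transfected with a plasmid for the angiotensin II receptor AT1R, also in the control cells. The cells received either nothing (Control), 1 nmol/l angiotensin II (AII), 10 µg/l epidermal growth factor (EGF), which acts on the EGF receptor that these cells express themselves, or both (AII+EGF), for 6 h or 24 h. The comparisons ask whether stimulation of both receptors together changes RNA levels differently from either alone. There were 4 libraries for each of the 4 conditions at each time point, except 3 for AII+EGF after 24 h, since replicate 2 of that group was not analysed here. In a transient transfection the plasmid reaches only some of the cells, and RNA was taken from all of them, so that fewer responding cells and a smaller response per cell cannot be told apart.

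Each ribosome needs the products of these genes in fixed proportions, and growing cells spend much of their transcription on them. Most of their mRNAs start with a C followed by a run of pyrimidines, the 5′ TOP element, through which mTOR signalling, acting on LARP1 and the 4E-BP proteins, sets how strongly they are translated. Growth factors such as EGF are known to act on ribosomal protein synthesis largely through this translational step, which a measurement of RNA level does not register. The genes are also known for their many processed pseudogenes, copies of the mRNA that were inserted elsewhere in the genome.

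The first bases of the RefSeq transcripts (build GRCh38.p14) show the element for the genes to which the results return. RPS19 and RPL13A were the 2 genes called after EGF, RPS27 and RPS27L, and RPL22 and RPL22L1, are pairs of a gene and its paralogue, and RPS4X had the highest count of the set. In each line 10 bases before and 20 bases from the transcription start are given on the transcript strand, and capitals mark the pyrimidine run that begins with a C at the start.
RPS19: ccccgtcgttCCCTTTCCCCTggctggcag
RPL13A: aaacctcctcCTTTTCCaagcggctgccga
RPS27: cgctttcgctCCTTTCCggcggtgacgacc
RPS27L: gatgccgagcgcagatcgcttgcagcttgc
RPL22: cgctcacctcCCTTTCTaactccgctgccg
RPL22L1: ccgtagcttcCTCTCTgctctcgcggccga
RPS4X: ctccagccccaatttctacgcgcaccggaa
The stretch of RPS19 is chr19:41860245-41860274 (plus strand), that of RPL13A is chr19:49487598-49487627 (plus strand) and that of RPS27L is chr15:63157458-63157487 (minus strand). The run was 11 bases long in RPS19 and 7 in RPL13A, whereas RPS27L and RPS4X had none at the annotated start.

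A promoter sequence was at hand for 67 of the 85 genes. A C at the annotated start followed by 4 or more pyrimidines was present in 43 of these 67 (64.2%), in 5 of 67 genes for mitochondrial ribosomal proteins (7.46%) and in 1429 of all 35116 promoters (4.07%). When the run was allowed to start within 5 bases of the annotated start, which overlaps with the first search, it was present in 51 of 67 (76.1%), in 22.4% of the mitochondrial ribosomal protein genes and in 21.1% of all promoters. Such a match describes the sequence and is no measure of its use.

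Total counts were 3881841 to 8540815 per library after 6 h and 6646227 to 33070903 after 24 h, and the 85 genes held 111318 to 242138 and 161173 to 446765 of them. Protein-coding genes took 81.4% to 84.7% of all counts after 6 h but 20.8% to 63.4% after 24 h, where U1 small nuclear RNA genes took 8.9% to 57.2%. For this reason the share of the ribosomal protein genes was taken over protein-coding counts. The transfected receptor gene AGTR1 had 950 to 1568 FPM (counts for every 1000000 counts of the library, after TMM normalisation) after 6 h and 369 to 685 FPM after 24 h, in control libraries too, and was itself higher with AII+EGF than in the control after 6 h (log2 fold change 0.45, SE 0.08, adjusted p = 0.000498, edgeR). With AII alone it had 1318 to 1515 FPM, against 950 to 1191 FPM in 6 h controls, without overlap (0.34, SE 0.08, adjusted p = 0.987, edgeR). Of the genes known from HEK293 cells, NEFM had 358 to 525 FPM and CDH2 45.8 to 58.9 FPM in the 6 h controls, whereas PAX2 was near 0 with at most 1.16 FPM. HBB was at 0 counts in all controls, and PTPRC and ALB had at most 7 counts in any control library.

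Without stimulation the ribosomal protein genes took 3.71% ± 0.38 (SD, n = 4) of the protein-coding counts after 6 h. The 4 control libraries had 4.27%, 3.52%, 3.43% and 3.63%. With AII the libraries had 3.03%, 3.5%, 3.08% and 3.5%, with EGF 3%, 3.53%, 3.3% and 3.44%, and with AII+EGF 3.34%, 3.38%, 3.39% and 3.61%. Every group overlapped with the control, and control replicate 1, at 4.27%, was the highest of all 16 libraries. After 24 h the share was 4.96% ± 0.379 in controls, 5.16% ± 0.289 with AII, 5.24% ± 0.351 with EGF (each SD, n = 4) and 5.32% ± 0.283 with AII+EGF (n = 3). It was 5.05% ± 0.339 in the 8 libraries of 24 h whose columns were named as filtered and 5.29% ± 0.276 in the other 7 (SD). The range of the 24 h controls, 4.52% to 5.39%, covered or overlapped that of each stimulated group, and all 15 libraries lay above all 16 libraries of the 6 h table.

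**Figure D1:**
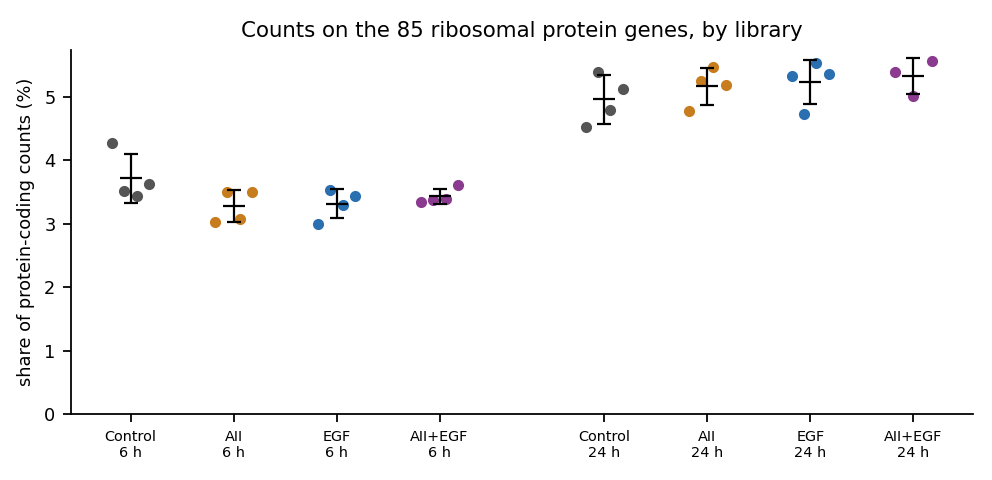
Share of the protein-coding counts on the 85 ribosomal protein genes (y axis, %) for each library (points), by condition and time point, with mean and SD (bars). Conditions overlap within each time point, control replicate 1 is the highest 6 h library at 4.27%, and the 24 h libraries lie at 4.52% to 5.56%.

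The small subunit held 48.7% to 54.3% of the counts of the set after 6 h and 39.7% to 43% after 24 h, and the highest of these values was again control replicate 1. The 7 paralogues together held 1.54% ± 0.217 in the 6 h controls and 1.16% ± 0.146 in the 24 h controls (SD, n = 4). The 12 genes with a transcript under 500 bases held 5.57% to 7.82% after 6 h, with both ends of this range within the AII group, and 12.1% to 14.1% after 24 h.

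Levels of single genes varied widely. Mean control FPM ran from 0.0399 (RPL10L) to 3018 (RPS4X) after 6 h, with 58 of 85 genes over 100 FPM, and the 10 highest genes held 47.7% of the FPM of the set. After 24 h it ran from 0.1455 to 1150, with 59 genes over 100 FPM, and the 10 highest genes held 33.4%. Per kilobase of transcript the 6 h order was led by RPS19, a small subunit protein mutated in Diamond-Blackfan anaemia, at 2973 ± 1289 FPM per kb, and RPS4X, at 2047 ± 248, was among the 3 highest (SD, n = 4). These levels did not differ beyond their spread. The 24 h order was led by RPL36 at 1157 ± 211 FPM per kb, and RPL41, at 966 ± 21.7, was among the 3 highest, again within their spread. RPL26L1, RPL3L and RPL10L, all paralogues, were lowest at both times, at 4.56, 0.38 and 0.0517 FPM per kb after 6 h. The lengths are those of the shortest annotated transcript with the full coding sequence, and some of these still carry long ends, such as 6110 bases for RPS27L.

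The spread between libraries of a condition was like that of other genes. The coefficient of variation of the ribosomal protein genes over 5 FPM had a median of 11.5% after 6 h, against 10.5% for all tested genes over 5 FPM, and of 13% after 24 h, against 15.2%. Control replicate 1 of the 6 h table stood apart for many genes, within this set and among all tested genes. It lay above all other controls for 38 and below all of them for 23 of the 83 tested genes, while the corresponding shares of all tested genes were 32.8% and 35.1%. It was over 1.5 times the mean of the other controls for 7 of the 83, against 10.2% of all tested genes. For RPS19 it was 2.09 times, for RPL13 1.84 times and for RPS3A 1.68 times the mean of the other 3 controls, whereas RPS26 was at 0.544 times and RPL11 at 0.68 times. Values without this library are given beside the main results after 6 h. The labels do not say that the libraries came from separate cultures, so p-values measure the spread between these libraries, which may be technical.

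After 6 h with EGF, 2 of 83 tested ribosomal protein genes were called, both lower than in the control (adjusted p under 0.05, edgeR quasi-likelihood test with Benjamini-Hochberg adjustment over all genes). Of all 18618 tested genes 1112 were called, or 5.97%, of which 670 were higher and 442 lower. RPS19 and RPL13A, a large subunit protein of the L13 family, were the 2 genes. Neither passed when a fold change over 1.5 and a level over 5 FPM were required in addition, which 1.73% of all genes passed. DESeq2 called 3 of the 83 genes (3.61%, against 7.33% of all genes), and RPS19 was not among them (adjusted p = 0.124, DESeq2). The median log2 fold change of the ribosomal protein genes was -0.01, against -0.01 over all genes, with 40 genes positive and 43 negative.

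RPS19 had 2566, 1077, 1256 and 1355 FPM in the 4 control libraries after 6 h and 966, 1100, 995 and 1172 FPM in the 4 EGF libraries. The groups overlapped, since control replicate 2 was below 2 of the EGF libraries, and control replicate 1 was about double the others. The log2 fold change was -0.56 (SE 0.17, adjusted p = 0.0466, edgeR). Without control replicate 1 it was -0.21 (SE 0.09, adjusted p = 0.206), and RPS19 was then not called. The gene lies on chr19:42364325-42376993 (GRCh37, plus strand) with 6 exons, and no 100-base window of its transcript recurs elsewhere in that genome.

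RPL13A had 441, 262, 279 and 287 FPM in the controls and 185, 232, 240 and 243 FPM with EGF. All EGF libraries lay below all controls, and control replicate 1 was again the highest. The log2 fold change was -0.49 (SE 0.13, adjusted p = 0.0268, edgeR). Without control replicate 1 it was -0.29 (SE 0.1, adjusted p = 0.122), and the gene was not called. RPL13A lies on chr19:49990767-49996314 (GRCh37, plus strand), has 8 exons and hosts 4 small nucleolar RNAs in its introns, and 28.1% of its 100-base windows recur elsewhere. Its pseudogene RPL13AP5 held more counts than the gene itself and had 2506 FPM in control replicate 1, 1103 to 1341 FPM in the other controls and 928 to 1169 FPM with EGF. With the counts of its pseudogenes added, the log2 fold change of RPL13A was -0.52 (SE 0.16, adjusted p = 0.0507, edgeR), so that the call was lost at a like fold and a larger SE.

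**Figure D2:**
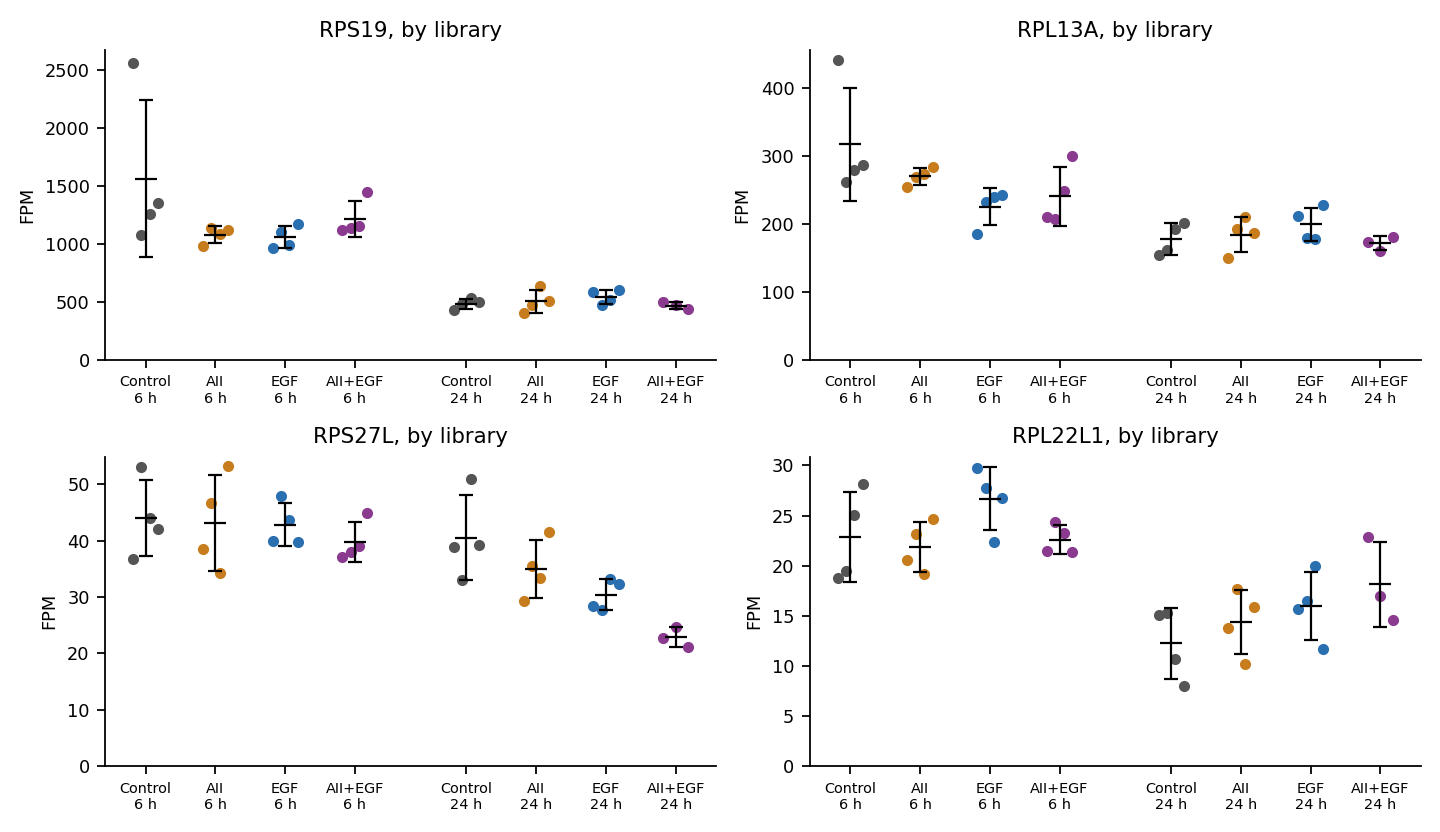
FPM (y axes) of RPS19, RPL13A, RPS27L and RPL22L1 in each library (points, with mean and SD as bars), by condition and time point. RPS19 and RPL13A are highest in control replicate 1 of the 6 h table, and the 3 AII+EGF libraries of RPS27L after 24 h, at 21.1 to 24.6 FPM, lie below all controls.

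Without control replicate 1 no ribosomal protein gene was called for EGF after 6 h, while 874 of all genes were, and 9 genes of the set (10.8%) had an unadjusted p under 0.05, against 17% of all genes. None was called without EGF replicate 1 or without EGF replicate 3 either, and 8 were called without control replicate 2. The share of all genes called in these fits is not reported here, so these counts cannot be set against it. With all libraries, 14 of 83 genes were lower with EGF at an unadjusted p under 0.05, against 10% of all genes. Only 1 gene of the set was higher, against 1906 of all 18618 tested genes. That gene was RPL26, a large subunit protein that also binds p53 mRNA, with 22.9, 27.4, 23.2 and 21 FPM in controls and 32, 27.9, 28.4 and 29.2 FPM with EGF. The groups did not overlap, and the log2 fold change was 0.31 (SE 0.11, adjusted p = 0.1, edgeR). Without control replicate 2 it was 0.4 (adjusted p = 0.0452, edgeR), and without control replicate 1 it was 0.3 (adjusted p = 0.169, edgeR). RPS3, which also takes part in DNA repair, had the next lower value after the 2 called genes, with a log2 fold change of -0.35 (SE 0.12, adjusted p = 0.0834, edgeR), and control replicate 1 had 2041 FPM of it against 1242 to 1633 FPM in the other controls. Without control replicate 1 it was -0.2 (adjusted p = 0.325, edgeR) and without control replicate 2 it was -0.44 (adjusted p = 0.0223, edgeR). RPS26, whose loss also causes Diamond-Blackfan anaemia, had the highest, 0.52 (SE 0.26, adjusted p = 0.272, edgeR), and was among the genes that were low in control replicate 1, without which it was 0.38. In the set 3 genes, RPL10 and RPL13A among them, had all EGF libraries below all controls, against 5.43% of all genes, and RPL26 and RPL9 had all above, against 6.61% of all genes.

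With AII+EGF after 6 h, 0 of 83 ribosomal protein genes were called with edgeR and 0 with DESeq2, whereas 6.1% of all genes were called with edgeR (744 higher, 392 lower). At an unadjusted p under 0.05 there were 2 genes of the set (2.41%), and 0 without control replicate 1, against 18.9% of all genes in both fits. No ribosomal protein gene passed the added fold and level filters, which 1.95% of all genes did. This comparison shares its 4 controls with that for EGF, so the values stand side by side. RPL13A had 210, 207, 248 and 299 FPM with AII+EGF (log2 fold change -0.39, SE 0.13, adjusted p = 0.0878, edgeR), and here the groups overlapped. It was -0.19 without control replicate 1. RPS19 had 1118, 1138, 1154 and 1445 FPM (-0.36, SE 0.17, adjusted p = 0.232, edgeR), and without control replicate 1 its log2 fold change was -0.01. The median over the set was -0.03, against -0.01 over all genes, and 0.009 without that library.

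With AII alone after 6 h, 0 of 83 ribosomal protein genes were called with edgeR or DESeq2, against 0% of all genes with edgeR. However, 64 of the 83 genes had a negative log2 fold change and the median was -0.11, against 0 over all genes. At an unadjusted p under 0.05, 17 genes had lower levels, against 2.33% of all genes. None had higher levels, against 411 of all 18618 tested genes. The smallest adjusted p of the set was 0.987. Lowest were RPS15 (-0.53, SE 0.18), RPS19 (-0.53, SE 0.17) and RPL23 (-0.39, SE 0.12), the last a large subunit protein that binds MDM2. These were -0.38, -0.18 and -0.24 without control replicate 1. RPL23 had 387, 527, 364 and 547 FPM with AII and 768, 562, 510 and 546 FPM in controls, so the groups overlapped and AII replicates 1 and 3 were low. In the set 2 genes, RPS4X among them, had all AII libraries below all controls, against 1.16% of all genes. Without control replicate 1, 8 genes (9.64%, against 3.18% of all genes) had an unadjusted p under 0.05, all lower, 65 of 83 were negative and the median was -0.08. The spread of the library medians within these groups was 0.223 (SD, log2), larger than the median difference.

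The small subunit genes had a median log2 fold change of -0.15 with AII after 6 h (28 of 33 negative) and the large subunit genes -0.07 (36 of 50 negative). With EGF the medians were -0.04 and 0.04, and with AII+EGF -0.08 and -0.01, and with AII the 43 genes with a pyrimidine run at the start had a median of -0.15. Control replicate 1, which had the largest small subunit share, enters all these values through the shared control. Without it the small and large subunit medians were -0.11 and -0.07 with AII, -0.02 and 0.03 with EGF and -0.01 and 0.02 with AII+EGF. Medians of the 43 genes without it are not reported here.

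AII+EGF against EGF after 6 h gave 0 called genes of the set and 0% of all genes with edgeR, and 0 genes of the set with DESeq2. At an unadjusted p under 0.05 there were 5 ribosomal protein genes (6.02%), against 7.26% of all genes, and without control replicate 1, which enters only through the filter, the normalisation and the shared dispersion, 14 (16.9%), 12 of them higher, against 9.72% of all genes. The interaction of AII and EGF, which is the effect of both minus the sum of the single effects on the log2 scale, gave likewise 0 called genes of the set and 0% of all genes with edgeR, and 0 genes of the set with DESeq2. At an unadjusted p under 0.05, 18 of 83 ribosomal protein genes had a positive interaction, against 3.8% of all genes. A negative one was found for 1 gene of the set, against 783 of all 18618 tested genes. RPL29, a large subunit protein, had the smallest p. It had 488, 445, 563 and 600 FPM in controls, 404, 451, 443 and 472 FPM with AII, 405, 411, 409 and 512 FPM with EGF and 478, 564, 512 and 592 FPM with AII+EGF. With AII 2 libraries and with EGF 3 libraries lay below all controls, whereas all AII+EGF libraries lay within the control range. The interaction was 0.55 (SE 0.13, adjusted p = 0.592, edgeR). RPS19 had an interaction of 0.73 (SE 0.24, adjusted p = 0.592, edgeR), and 0.38 without control replicate 1. Without that library 15 genes (18.1%) had an unadjusted p under 0.05, 14 of them with a positive interaction, against 5.89% of all genes.

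**Figure D3:**
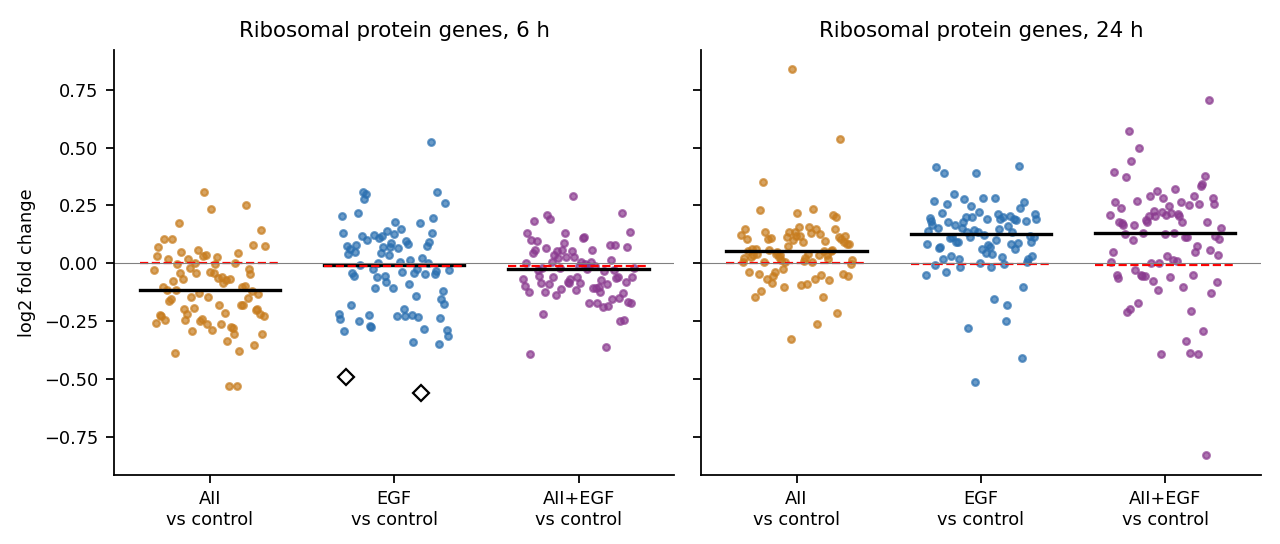
Log2 fold change against control (y axis) of each tested ribosomal protein gene (points, 83 after 6 h and 84 after 24 h) for AII, EGF and AII+EGF. Solid lines are the medians of these genes, dashed lines those of all tested genes, and open diamonds are the 2 called genes, RPS19 and RPL13A with EGF after 6 h.

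After 24 h no ribosomal protein gene was called with edgeR in any comparison. With EGF it was 0 of 84, against 0.0316% of all genes (7 of 22174), with AII+EGF 0 of 84, against 0.0271% (6 genes), with AII 0, against 0%, with AII+EGF against EGF 0, against 0%, and for the interaction 0, against 0%. At an unadjusted p under 0.05 there were 5 genes of the set with EGF (5.95%, against 8.48% of all genes), 12 with AII+EGF (14.3%, against 5.4%), 1 with AII (1.19%, against 2.49%), 5 with AII+EGF against EGF (5.95%, against 3.37%) and 2 for the interaction (2.38%, against 2.37%). DESeq2 called 1 gene of the set, RPS27L with AII+EGF, and 0 in the other comparisons. Over all genes the fits put the variation between replicates at 29.1% after 24 h and 10.6% after 6 h. The median SE of the log2 fold change with EGF after 24 h and 6 h was 0.142 and 0.117 for the ribosomal protein genes. Over all genes this SE was 0.288 and 0.154.

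RPS27L, a p53-responsive paralogue of RPS27, was nearest to the threshold. After 24 h it had 38.8, 33, 50.9 and 39.1 FPM in controls, 29.2, 35.6, 33.4 and 41.6 FPM with AII, 28.4, 27.7, 33.1 and 32.3 FPM with EGF and 22.7, 24.6 and 21.1 FPM with AII+EGF. The 3 AII+EGF libraries lay below all others, and all EGF libraries but 1 lay below all controls. The log2 fold change with AII+EGF was -0.83 (SE 0.15, adjusted p = 0.0536, edgeR) and with EGF -0.41 (SE 0.14, adjusted p = 0.387, edgeR). With DESeq2 the adjusted p for AII+EGF was 0.000374, with a term for library series 0.00654 and without control replicate 2 0.0206, and over the alternatives it ran from 0.000374 to 0.487. Of the 3 AII+EGF libraries 1 belongs to the first series of library numbers and 2 to the other. RPS27L was the only gene of the set with all AII+EGF libraries below all controls, against 3.19% of all genes. After 6 h the same gene had 36.8, 53.1, 44.1 and 42 FPM in controls and 37, 38, 39.1 and 44.8 FPM with AII+EGF, which overlapped. The difference between the 24 h and the 6 h effect of AII+EGF was -0.7 (SE 0.2, adjusted p = 0.228, edgeR).

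RPS27, the partner of this paralogue, had 15.6, 15.6, 11.3 and 18.8 FPM in 24 h controls, 27.4, 17.7, 20 and 17.4 FPM with EGF and 13.4, 9.96 and 13.9 FPM with AII+EGF, all overlapping with the controls. The log2 fold change with EGF was 0.42 (SE 0.19, adjusted p = 0.568, edgeR). The counts of RPS27 are uncertain, since 94.1% of its 100-base windows recur elsewhere in the genome.

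At the other end after 24 h stood genes with higher values that did not pass. RPL28 had 184, 238, 242 and 237 FPM in controls and 267, 318 and 370 FPM with AII+EGF, without overlap, and a log2 fold change of 0.5 (SE 0.16, adjusted p = 0.636, edgeR). RPL22L1, the paralogue of RPL22, had 15.1, 15.3, 10.7 and 7.99 FPM in controls and 22.9, 17 and 14.5 FPM with AII+EGF, with a log2 fold change of 0.57 (SE 0.24, adjusted p = 0.906, edgeR). Its groups overlapped by 1 library. RPS29, one of the shortest mRNAs of the set, had the highest value, 0.71, but an SE of 0.4, and its controls ran from 38.1 to 213 FPM. Without control replicate 2, the library with 213 FPM, it was 1.49 (SE 0.29, adjusted p = 0.0481, edgeR). RPL41, the smallest ribosomal protein, had 452, 467, 444 and 449 FPM in controls and 534, 494, 554 and 529 FPM with EGF, so that the groups were apart while the log2 fold change was only 0.22 (SE 0.11, adjusted p = 0.615, edgeR).

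RPS27A, which is made as a fusion with ubiquitin, had 125 to 136 FPM in controls and 175, 136 and 193 FPM with AII+EGF (0.38, SE 0.14, adjusted p = 0.85, edgeR). Among the remaining genes with the largest differences after 24 h, the log2 fold change with EGF was 0.42 (SE 0.18) for RPL17, -0.28 (SE 0.19) for RPL36A and -0.51 (SE 0.38) for RPL39L, and with AII+EGF it was -0.39 (SE 0.25) for RPS23, none of them called.

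Across the set, 71 of 84 genes were positive with EGF after 24 h and the median was 0.13, against 0 over all genes, with 4 genes higher at an unadjusted p under 0.05, against 4% of all genes. With AII+EGF 61 of 84 were positive, the median was 0.13, against -0.01, and 10 were higher at an unadjusted p under 0.05, against 2.92% of all genes. With AII 62 of 84 were positive and the median was 0.05. These comparisons share their controls. The SD of library medians was 0.117 and 0.129 (log2) for EGF and AII+EGF, so these medians were about as large as that spread. All EGF libraries were above all controls for RPL41, RPS16 and RPSA, against 2.35% of all genes, and all AII+EGF libraries for 9 genes, RPL28, RPL38, RPL41 and RPSA among them, against 3.99% of all genes. Adjusted p for these 9 genes was 0.636 or more (edgeR).

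Whether the effects changed with time was tested in a fit of all 31 libraries. For EGF 0 of 83 ribosomal protein genes were called with edgeR, against 0.173% of all genes, and for AII+EGF 0 were called, against 0.123%. DESeq2 called 0 in both. At an unadjusted p under 0.05 there were 11 genes of the set for EGF (13.3%, against 10.1% of all genes) and 6 for AII+EGF (7.23%, against 7.49%). Without control replicate 1 of the 6 h libraries these were 4 (4.82%, against 8.16%) and 3 (3.61%, against 7.17%). The largest values for EGF were those of RPS19 (0.73, SE 0.24, adjusted p = 0.246, edgeR) and RPL13A (0.66, SE 0.2, adjusted p = 0.197, edgeR). Without control replicate 1 of the 6 h table they were 0.37 and 0.45.

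Among the genes with named roles, RPLP0, RPLP1 and RPLP2, which form the stalk that recruits translation factors, were not called in any comparison. RPLP0 had 393 to 428 FPM in 6 h controls and 361 to 430 FPM with EGF, and RPLP2 had 341 to 560 FPM and 287 to 428 FPM, each overlapping. RPS6, the substrate of the S6 kinases, had 1531, 1098, 1000 and 991 FPM in 6 h controls and 943, 1126, 1033 and 987 FPM with EGF. Apart from control replicate 1 these ranges were alike. RPL5 and RPL11, which bind MDM2 when ribosome assembly is disturbed, had 1333 to 1503 and 141 to 238 FPM in 6 h controls and 1262 to 1376 and 184 to 275 FPM with EGF, and neither was called.

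Paralogues took very different parts of their pairs. RPL3L, known from muscle, and RPL10L, known from testis, had at most 25 and at most 5 counts in any library. RPL26L1 held 11.5% ± 0.95 of the counts of the pair with RPL26 in 6 h controls and 1.53% ± 0.855 in 24 h controls. RPL22L1 held 10.5% ± 1.72 of the counts with RPL22 after 6 h and 4.79% ± 1.17 after 24 h (SD, n = 4 each). After 24 h this share ran from 3.21% to 5.81% in controls, from 4.25% to 8.34% with EGF and from 7.14% to 8.64% with AII+EGF, so that the AII+EGF libraries were above all controls. RPL7L1 held 89.6% ± 0.773 and RPS27L 78.4% ± 2.47 of their pairs in 6 h controls. In both pairs the partner, RPL7 or RPS27, has a sequence that recurs widely in the genome, and the shares were not adjusted for length.

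The FPM of many ribosomal protein genes differed between the 2 tables. Of the 81 genes over 5 FPM in the controls of both, 58 had control ranges that did not overlap between 6 h and 24 h, 37 lower and 21 higher after 24 h, and 20 were at least 2-fold lower and 11 at least 2-fold higher. RPS3 had a mean of 1579 FPM after 6 h and 459 FPM after 24 h, RPS19 1564 and 486 FPM and RPS4X 3018 and 1150 FPM. In the other direction RPL26 had 23.6 and 160 FPM, RPS25 39.5 and 162 FPM, RPL11 191 and 723 FPM and RPL38 126 and 357 FPM. FPM is relative to all counts, with TMM factors set within each time point. Protein-coding genes held a mean of 82.8% of all counts in the 6 h controls and 47.2% in the 24 h controls. Of the protein-coding counts the set held 3.71% and 4.96%, so a lower FPM after 24 h need not be a lower share of these. Time and the making and processing of the libraries cannot be told apart here, and no test was made.

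**Figure D4:**
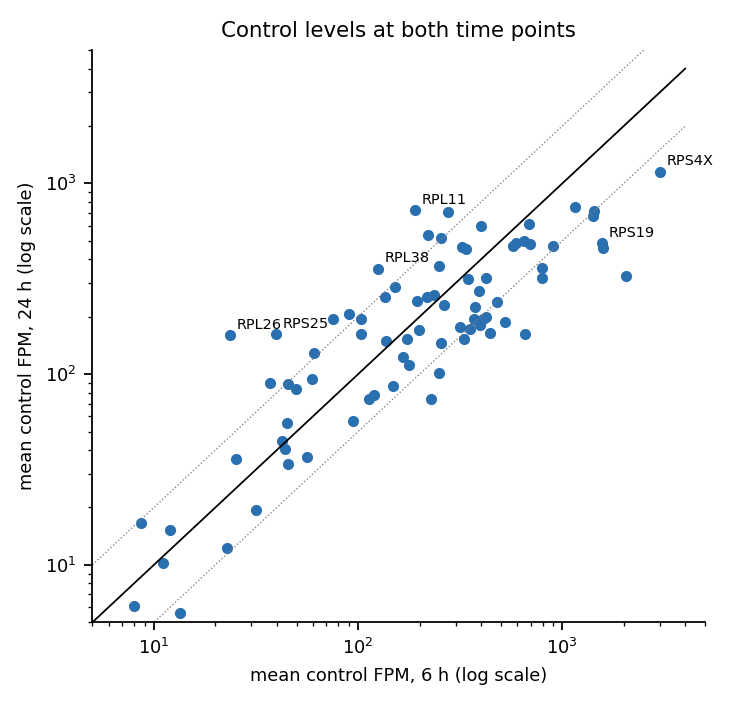
Mean control FPM after 24 h (y axis, log scale) against 6 h (x axis, log scale) for the 81 ribosomal protein genes over 5 FPM in both. The solid line marks equal FPM and dotted lines a 2-fold difference in FPM, with RPS19 and RPS4X below the lower and RPL26 above the upper dotted line. FPM is relative to all counts, of which protein-coding genes held a smaller part after 24 h.

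Counts on pseudogenes were a large quantity beside those on the genes. The tables hold 855 pseudogenes named for 75 of the 85 genes, with 47.1 to 50.4 counts for every 100 on the genes after 6 h and 50.3 to 58.5 after 24 h. Over 50% of the counts of a gene and its pseudogenes fell on pseudogenes for 19 of the 75 genes after 6 h and for 23 after 24 h, while the median was 2.86% and 10.3%. RPL7 had 95.8%, RPL9 95.6% and RPL13A 83.4% of these counts on pseudogenes after 6 h, and RPS19 0.225%. In the reference genome 26 of 84 genes had no 100-base window that recurs elsewhere and 13 had over 50%. The mapper was set to report several hits for a read, and how these were counted is not given in the sources used here, so the counts of genes with such copies, RPL13A among them, are uncertain.

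**Figure D5:**
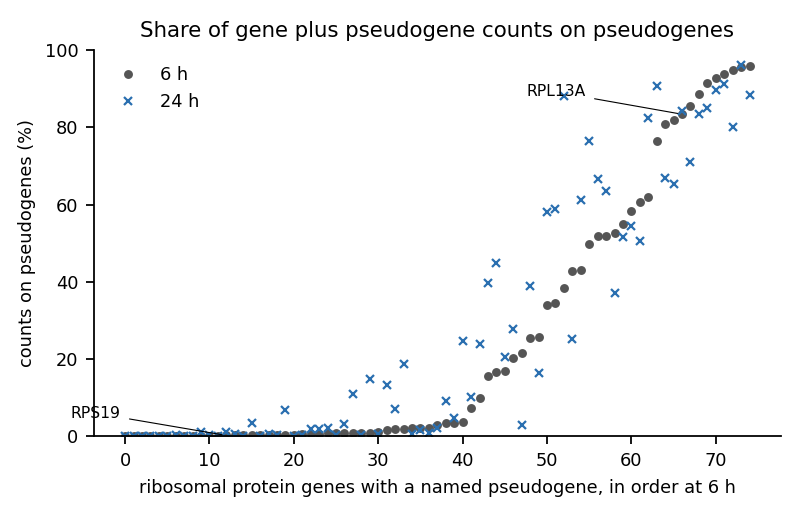
Share of the summed counts of a gene and its pseudogenes that fell on the pseudogenes (y axis, %) for the 75 ribosomal protein genes with a named pseudogene, ordered by the 6 h value. RPS19 is near 0 and RPL13A at 83.4% after 6 h, and 19 genes after 6 h and 23 after 24 h lie over 50%.

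Small nucleolar RNAs guide the chemical modification of ribosomal RNA, and many are cut from introns of ribosomal protein genes. In the reference annotation 28 of the 85 genes host 59 of them. Of these, 44 were at 0 counts in every 6 h library and 41 in every 24 h library. SNORD15B, in an intron of RPS3, was the only one with a median over 5 FPM, with 11.8 FPM after 24 h and 2.98 FPM after 6 h. Only 11 of the 59 passed the low-count filter after 6 h and 10 after 24 h, and none of these was called in a comparison with the control.

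Genes with related roles were counted in the same fits. FAU and GNB2L1 were not called in any comparison with the control, and FAU had a log2 fold change of -0.22 (SE 0.13) with EGF after 6 h. Of 15 tested mRNAs outside the set that are known to carry a 5′ TOP element, 0 were called with EGF after 6 h and 1 with AII+EGF, the initiation factor EIF4B, which was lower with -0.27 (SE 0.08, adjusted p = 0.0415, edgeR) and -0.23 without control replicate 1 (adjusted p = 0.0897, edgeR). Among 14 genes that control the translation of ribosomal protein mRNAs, EIF4E, which binds the mRNA cap, rose by 0.58 on the log2 scale with EGF after 6 h (SE 0.13, adjusted p = 0.00581, edgeR), and TSC1, an inhibitor of mTOR signalling, fell by 0.23 (SE 0.07, adjusted p = 0.0393, edgeR). With AII+EGF after 6 h EIF4G1, the scaffold of the cap-binding complex, rose by 0.31 (SE 0.06, adjusted p = 0.00374, edgeR) and the other 13 did not pass. EIF4E had 28.7 FPM in control replicate 1 and 52.1 to 53.8 FPM in the other controls, and without that library its value was 0.42 (adjusted p = 0.00318, edgeR). The TSC1 value was then -0.23 (adjusted p = 0.0695, edgeR) and that of EIF4G1 with AII+EGF 0.36 (adjusted p = 0.000404, edgeR). EIF4G1 then also passed with EGF alone, at 0.26 (SE 0.06, adjusted p = 0.00972, edgeR).

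Of 74 tested genes for mitochondrial ribosomal proteins, MRPL4 rose by 0.46 (SE 0.11, adjusted p = 0.0158, edgeR) and MRPS33 fell by 0.5 (SE 0.14, adjusted p = 0.0286, edgeR) with EGF after 6 h, and MRPS12 rose by 0.53 (SE 0.15, adjusted p = 0.0299, edgeR) with AII+EGF. The adjusted p without control replicate 1 was 0.0409, 0.0856 and 0.0262 (edgeR), so MRPS33 was then not called. The median of the mitochondrial set after 6 h was -0.01 with EGF, -0.08 with AII (52 of 74 negative) and 0.14 for the interaction (52 of 74 positive), beside -0.01, -0.11 and 0.08 for the cytosolic set. After 24 h none of the genes of these groups was called.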

How the data were processed

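RNA-seq libraries of transiently AT1R-transfected HEK293 cells were read from 2 deposited tables of whole-number counts per gene, 1 for each time point. Per the labels and the methods of the study, the authors trimmed reads with cutadapt 1.8.1, mapped them with TopHat2 2.0.14 to hg19 (the design text names HISAT2 instead) and counted them with featureCounts 1.4.6 on Ensembl 75 genes. The mapper was set to report several hits for a read, and how featureCounts treated strand and such reads is not given in the sources used here. At 24 h, 8 of 15 columns were named as filtered, and what was removed is not stated.

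Groups were taken from the labels. Genes with low counts were removed (filterByExpr), libraries were normalised by TMM, and edgeR 4.0.16 (R 4.3.3) quasi-likelihood tests with Benjamini-Hochberg adjustment were run per time point over all 4 conditions, and over both times for the difference between 24 h and 6 h. The low-count filter kept 83 of the 85 genes at 6 h and 84 at 24 h, and RPL10L was among those removed at both. Calls needed an adjusted p under 0.05. The fits were also run on simulated counts that held no deviating library, and the outcome is not reported here. Alternatives were DESeq2 1.42.0, its size factors, no low-count filter, protein-coding genes only, pseudogene counts added, a term for library series, leaving out each library, and stricter thresholds. Lengths, exons and copied windows came from GENCODE v44 on GRCh37, where 84 of 85 genes matched, and start sequences from RefSeq.

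Genes named were the paralogue pairs, RPLP0 to RPLP2, RPS6, RPL5, RPL11, RPS27A, RPSA, RPS4X and RPL13A, all called members, and those with the largest rises, falls or levels per kilobase. Others that are named, such as RPL29, RPL23, RPL41 and RPS15, were chosen after their values were seen. Some genes are included in the counts but are not reported here by name. The members and gene lists were chosen with earlier results of these data known.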

Additional observations from a re-analysis of the deposited data

Results flagged for a closer look

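A library was marked when its gap to the nearest library of its condition took up most of the range of the 4 libraries (Dixon's ratio over its 95% limit). Of 277 combinations of condition and measure, 17 were marked, and 1 in 20, or 13.9, would be by chance.

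After 6 h control replicate 1 was the highest for RPL13A (ratio 0.863) and RPS4X (0.84), and AII+EGF replicate 4 for RPS19 (0.891) and RPLP1 (0.859). AII replicate 3 was the highest for RPL10 (0.921), AII replicate 1 the lowest for RPL28 (0.925), EGF replicate 1 the highest for RPS28 (0.913) and AII+EGF replicate 2 the highest for RPL39L (0.936). RPL10L had a ratio of 1 in the controls, since it had 1 count in 1 library and 0 in the others.

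After 24 h control replicate 1 was the lowest for RPL28 (0.912). Control replicate 2 was the highest for RPL3L (0.832) and control replicate 4 for RPS23 (0.905). AII replicate 1 was the highest for RPL39L (0.913) and AII replicate 3 for RPS23 (0.864). EGF replicate 2 was the lowest for RPLP0 (0.919) and EGF replicate 3 the highest for RPS4X (0.913).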

How the results depend on the processing

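Counts of called ribosomal protein genes depended most on the low-count filter. Without it, 7 were called for AII, 12 for EGF, 2 for AII+EGF, 1 for AII+EGF against EGF and 9 for the interaction after 6 h, 2 for AII+EGF after 24 h and 1 for the change of the EGF effect between times, while of all genes 0.211%, 3.33%, 2.99%, 0.143%, 0.223%, 0.329% and 0.18% were called in these fits. With protein-coding genes only, 6 were called for EGF and 1 for AII+EGF after 6 h and 1 for AII+EGF after 24 h, against 10%, 9.58% and 0.119% of the protein-coding genes. DESeq2 and a term for library series each gave 1 for AII+EGF after 24 h (1.19%, against 0.203% and 0.162% of all genes). For EGF after 6 h DESeq2 gave 3 (3.61%, against 7.33% of all genes) and the term for library series 2 (2.41%, against 7.22%). Added filters on fold change and level and an adjusted p under 0.01 each gave 0 for EGF after 6 h. With single libraries left out the count ran from 0 to 8 for EGF and from 0 to 1 for AII+EGF after 6 h, and from 0 to 2 for AII+EGF after 24 h, with 2 without control replicate 2. For most of these fits the share of all genes called is not reported here. Single-gene values were recomputed only for selected results, such as those of RPS19, RPL13A and RPS27L, chosen with their values known. Of these recomputed values 504 kept their direction and side of the threshold, 21 came to pass it and 18 no longer did. None changed sign, which says little about the other genes, since the results were picked largely for their size or small p. The causes were not tested.

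The share of the genes changed with its definition. Over all counts it was 3.07%, 2.72%, 2.75% and 2.85% for control, AII, EGF and AII+EGF after 6 h and 2.35%, 2.24%, 2.21% and 2.34% after 24 h. With pseudogene counts added it was 5.41%, 4.8%, 4.82% and 4.98%, and 7.49%, 7.8%, 7.87% and 8.06%. Every median log2 difference moved by less than the SD of library medians in all alternatives. The RPS19 call was also lost, at a log2 fold change of -0.56 in both, with DESeq2 (adjusted p = 0.124) and with a term for library series (adjusted p = 0.0516), and it was kept in 4 of 16 fits with a library left out. No paired analysis was possible because no label numbers the replicates within a group. The library numbers in the titles allowed only the term for the 2 series. Depth limits the lowest genes, such as RPL10L and RPL3L.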
